A study of Mus musculus with 2 samples.

Results

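A set of 10 genes of the Notch pathway was followed in ureter explants in which SHH signaling was blocked around birth. The set held 3 receptors (Notch1, Notch2 and Notch3), 3 ligands (Jag1, Dll1 and Dll4) and 4 genes of the Hes/Hey family (Hes1, Hey1, Hey2 and Heyl). Members were the probes that carried these names in the array annotation, and all 10 genes were found among the 19398 genes tested, with 13 probes in total. Where a gene had more than 1 probe, the brightest over the 4 channels was used. Ureters came from newborn (P0) wildtype mice of the NMRI strain and were cultured for 18 h, either with 10 µM cyclopamine, a plant alkaloid that inhibits the SHH transducer SMO, or with DMF at 1:1000 as control. The study's methods name ethanol as the solvent of cyclopamine. Pooled ureters gave the RNA, and each of 2 two-colour arrays carried a cyclopamine pool against a control pool. Replicate 1 held female pools with cyclopamine in the red channel, and replicate 2 held male pools with the dyes swapped. Sex, dye orientation and replicate cannot be told apart. A channel name in the labels gives IWP-2 for the treated pools, whereas the titles and treatment entries give cyclopamine, so the pools were analysed as cyclopamine.

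Notch receptors are membrane proteins that are activated by ligands of the Jagged and Delta-like families on neighbouring cells. Ligand binding leads to cleavage of the receptor by ADAM proteases and gamma-secretase, and the released intracellular domain joins the DNA-binding protein RBPJ and a Mastermind co-activator at target genes. Genes of the Hes and Hey families, which encode basic helix-loop-helix repressors, are the best known targets. In blood vessels Dll4 and Notch4 are typical of endothelial cells, and Notch3 and Heyl of mural and vascular smooth muscle cells. A whole ureter holds urothelium, lamina propria fibrocytes, smooth muscle, vessels and other cells, so that in these bulk pools fewer cells of a type and less RNA per cell cannot be told apart.

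RefSeq promoter windows (GRCm38.p6, from 250 bases before to 50 bases after the start site) were at hand for 7 of the 10 genes, in 8 windows. Windows for Hes1, Hey1 and Heyl were not used here. Motifs of 3 kinds were searched on both strands: the RBPJ site GTGGGAA, the GLI site TGGGTGGTC, which is read by the transcription factors of the SHH pathway, and the N box CACNAG, which is bound by HES proteins. The RBPJ site was found in 6.38% of all 32851 windows and in 1 of the 8 windows of the Notch genes, that of Hey2, which held 2 matches. The N box was found in 42.5% of all windows and in 5 of these 8, those of Notch1, Notch2, Notch3 and Dll4 and the second window of Dll1. In Notch1 matches on opposite strands overlapped. The GLI site was found in 0.253% of all windows and in none of the 8. Windows of 4 genes are shown, 5′ to 3′ on the strand of the gene, with every match to the motifs in capitals. Hey2 (chr10:30842734-30843033, minus strand) is shown as the target gene with RBPJ matches, and Hes5 (chr4:154960673-154960972, plus strand), a further Hes gene, because it also held 2. Notch3 (chr17:32166841-32167140, minus strand) is shown as the receptor of the set of 10 with the widest gap between the arrays, with 2 N box matches, and Jag1 (chr2:137116471-137116770, minus strand) as the ligand of that set with the highest mean ratio, with no match.
Hey2: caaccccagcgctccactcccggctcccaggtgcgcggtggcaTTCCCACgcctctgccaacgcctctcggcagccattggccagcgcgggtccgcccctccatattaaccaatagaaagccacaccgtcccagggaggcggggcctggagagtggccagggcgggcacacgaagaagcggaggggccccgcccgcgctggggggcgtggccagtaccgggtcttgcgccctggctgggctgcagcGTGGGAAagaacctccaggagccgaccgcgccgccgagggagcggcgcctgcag
Hes5: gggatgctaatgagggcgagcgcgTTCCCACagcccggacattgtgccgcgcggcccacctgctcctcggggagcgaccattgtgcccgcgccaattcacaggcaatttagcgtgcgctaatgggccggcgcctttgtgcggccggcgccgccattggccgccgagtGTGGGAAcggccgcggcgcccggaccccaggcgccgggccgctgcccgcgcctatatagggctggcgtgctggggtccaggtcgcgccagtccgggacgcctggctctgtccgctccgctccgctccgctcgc
Notch3: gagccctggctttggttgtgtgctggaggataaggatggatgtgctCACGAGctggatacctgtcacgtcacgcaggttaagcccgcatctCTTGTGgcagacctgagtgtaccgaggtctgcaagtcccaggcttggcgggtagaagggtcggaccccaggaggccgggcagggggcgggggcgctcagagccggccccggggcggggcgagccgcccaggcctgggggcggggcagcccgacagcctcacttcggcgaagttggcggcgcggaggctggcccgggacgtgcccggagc
Jag1: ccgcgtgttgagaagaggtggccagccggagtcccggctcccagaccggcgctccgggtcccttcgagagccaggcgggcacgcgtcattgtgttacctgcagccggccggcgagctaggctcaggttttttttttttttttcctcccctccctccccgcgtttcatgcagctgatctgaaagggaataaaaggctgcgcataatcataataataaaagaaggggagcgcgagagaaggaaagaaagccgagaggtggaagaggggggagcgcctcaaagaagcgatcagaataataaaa
In Hey2 the matches began at positions -207 and -4 from the start site, and in Hes5 at -226 and -83. In both genes the first match lay on the reverse strand and the second on the forward strand. In Notch3 the matches began at -204 and -159. A match is a description of the letters only.

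The arrays gave ratios of unequal spread. Over the tested probes the log2 ratio of cyclopamine over control had an SD of 0.46 on replicate 1, compared with 0.30 on replicate 2. The ratios of the 2 arrays were correlated with Pearson's r = 0.24 across probes, which are not independent replicates. Intensities cannot be set side by side between the arrays, because the upper quartile of the control channel was 5.32 times higher on replicate 1. On replicate 1 the ratio rose with the genomic length of the gene (Spearman's rho = 0.44 across 22468 probes), whereas rho was 0.035 on replicate 2. The median log2 ratio on replicate 1 was -0.29 for genes under 5 kb and 0.28 for genes over 50 kb. The target genes of SHH that served as a check of the treatment were below the control on both arrays. Gli1, a transcription factor induced by SHH, had log2 ratios of -1.83 on replicate 1 and -2.09 on replicate 2 (adjusted p = 1.758e-08, limma). The SHH receptor gene Ptch1 had log2 ratios of -1.13 and -1.49 (adjusted p = 0.000248), and Hhip, which encodes a secreted SHH antagonist, of -0.31 and -1.99 (adjusted p = 0.00683). The value of Hhip on replicate 1 was at percentile 25.0 of that array, and a second, dimmer probe gave -0.99 and -2.32. A second, dimmer Ptch1 probe gave -0.54 on replicate 1, at percentile 11.9 of that array, and -1.42 on replicate 2.

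None of the 10 Notch genes was called by limma at an adjusted p under 0.05, and none had an unadjusted p under 0.05. Over all 19398 tested genes 0.866% were called lower and 0.438% higher. At an unadjusted p under 0.05 (limma) 933 of them were lower and 822 higher. The adjusted p of the 10 genes, from limma over all tested probes, ran from 0.704 for Jag1 to 0.996 for Hey1. The intensity and fold filter of the study, taken here as a control intensity over 100 and a change of 1.5-fold or more in the same direction for each of the 2 arrays, could be applied to 9 of the 10 genes, since Hey2 was too dim on replicate 2, and no Notch gene passed it. Of all 13661 genes above that intensity, 0.63% passed as lower and 0.212% as higher. The 10 Notch genes had a median of 0.10 over their mean log2 ratios, and all tested genes a median of -0.0055. On replicate 1 the median of the Notch genes was 0.25 and on replicate 2 it was 0.01, whereas the median of all genes was near 0 on both arrays. With 2 arrays the precision was low. The limma 95% intervals of the 10 genes reached from -0.77, at the lower end for Hes1, to 0.76, at the upper end for Jag1, which are changes to 0.587-fold and 1.70-fold. The smallest absolute mean log2 ratio among the probes that were called was 0.83, and no Notch gene reached it.

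**Figure D1:**
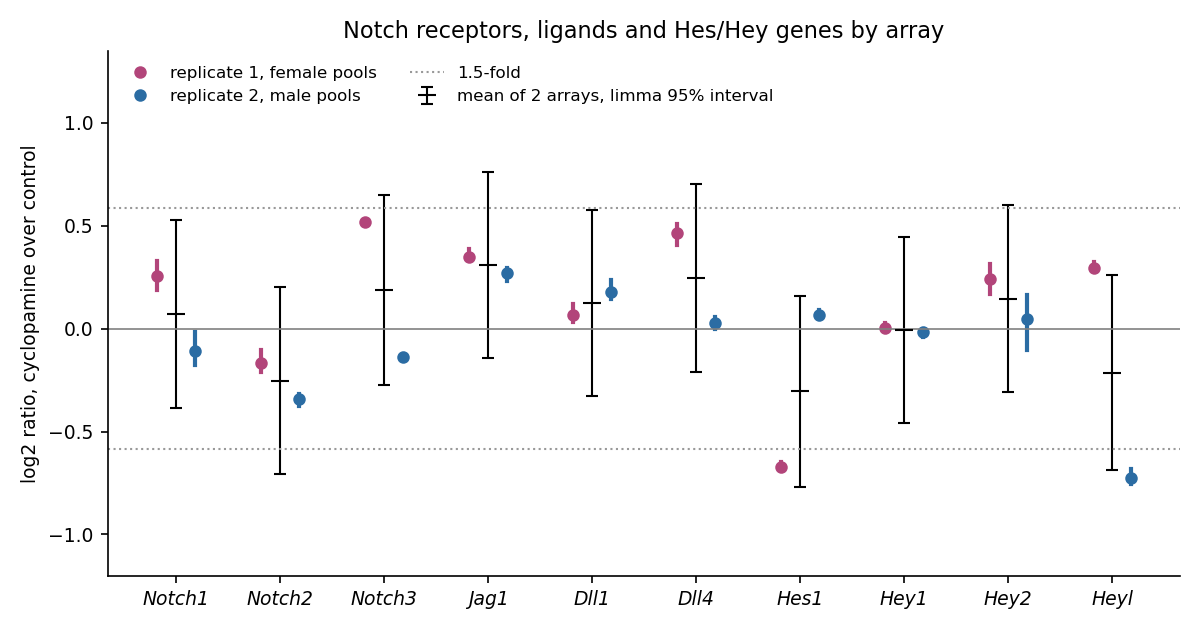
Log2 ratio of cyclopamine over control for each Notch gene on replicate 1 (female pools) and replicate 2 (male pools). Coloured points are means over the spots of the probe and coloured bars run from the lowest to the highest spot; black marks are the mean of both arrays with its limma 95% interval, and dotted lines mark 1.5-fold. All 10 intervals include 0, and Hes1 and Heyl pass 1.5-fold on a single array each.

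The receptors had no common direction. Notch1, a receptor used in many tissues, was read by a probe at chr2:26314630-26314689 (mm9, the build of the array annotation, which names no exon or UTR for the probes). Its intensity on replicate 1 was 447 in the control and 534 with cyclopamine, and on replicate 2 it was 104 and 96.2. The log2 ratio was 0.26 on replicate 1 and -0.11 on replicate 2, so that the 4 spots of the probe lay above 0 on the first array and below 0 on the second. The mean was 0.07 ± 0.26 (SD, n = 2). A second Notch1 probe, which was dimmer, gave 0.14 and 0.11.

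Notch2, a receptor with a broad expression in mesenchyme and epithelium, was the only receptor whose brightest probe was below its control on both arrays. Its intensity was 3236 in the control and 2884 with cyclopamine on replicate 1, and 752 and 594 on replicate 2 (probe at chr3:97953914-97953973, mm9). The log2 ratio was -0.17 and -0.34, with a mean of -0.25 ± 0.12 (SD, n = 2) and a limma 95% interval from -0.71 to 0.20 (adjusted p = 0.762). A second Notch2 probe, at chr3:97951233-97951292, disagreed. Its intensity was 35.2 and 52.4 on replicate 1 and 13.9 and 14.3 on replicate 2, and its log2 ratios were 0.57 and 0.05. The mean over both probes was 0.03, so the direction of Notch2 was not settled by these arrays.

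Notch3, the receptor typical of mural and smooth muscle cells, was higher with cyclopamine in the female pool and slightly lower in the male pool. Its intensity was 6896 in the control and 9877 with cyclopamine on replicate 1, a ratio of 1.43, and 1375 and 1248 on replicate 2 (probe at chr17:32257848-32257907, mm9). The log2 ratios were 0.52 and -0.14. The spots of each array, which are technical repeats of a pool, had an SD of 0.01 on either array. Its mean was 0.19 ± 0.47 (SD, n = 2; adjusted p = 0.837, limma). With the fitted trend on gene length removed from each array, the value on replicate 1 was 0.35.

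**Figure D2:**
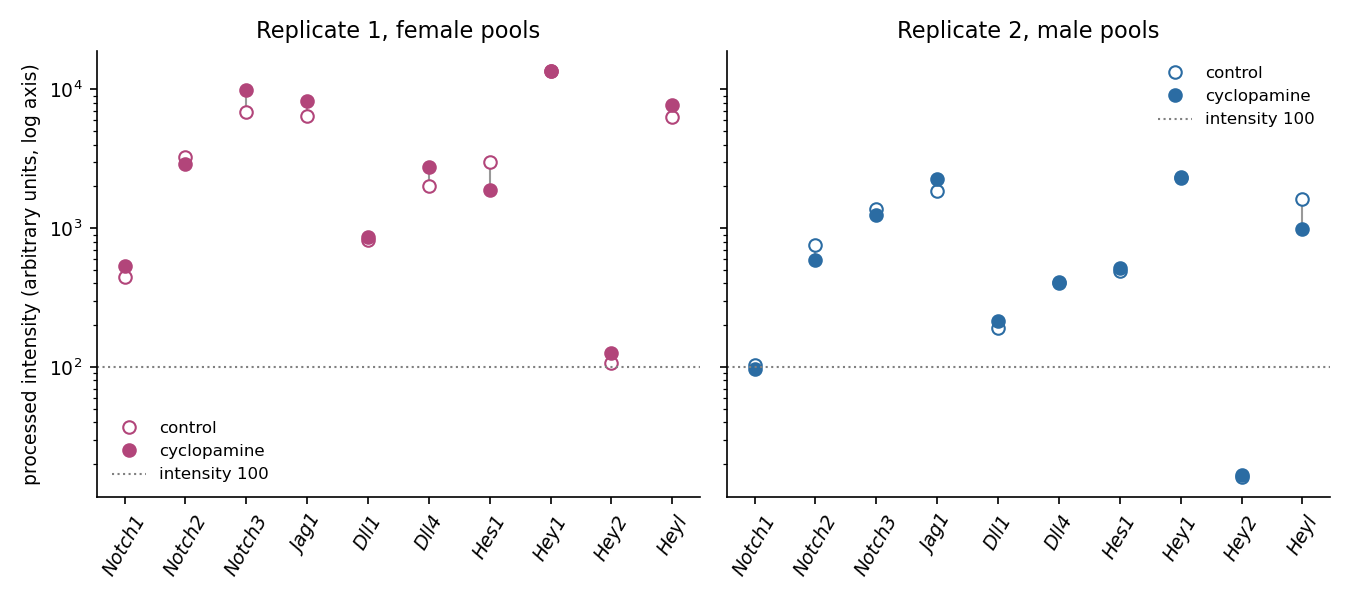
Processed intensity of each Notch gene in the control channel (open circles) and the cyclopamine channel (filled circles) on replicate 1 (female pools) and replicate 2 (male pools), on a log axis; the dotted line marks an intensity of 100. Intensities of different genes come from different probes and are not to be compared. Hey1 gave nearly the same intensity with and without cyclopamine on both arrays, and Hey2 lay at 16.1 and 16.6 on replicate 2.

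The 3 ligands had means above 0 and were above their controls on both arrays. Jag1, a ligand of the Jagged family with roles in smooth muscle and epithelium, had the highest mean of the 10 genes. Its intensity was 6478 in the control and 8255 with cyclopamine on replicate 1, and 1869 and 2250.3 on replicate 2 (probe at chr2:136907433-136907492, mm9). All spots of both arrays lay above 0. The log2 ratios of 0.35 and 0.27 differed little between the arrays and gave a mean of 0.31 ± 0.06 (SD, n = 2), or 1.24-fold, with a limma 95% interval from -0.14 to 0.76 (adjusted p = 0.704). That interval includes 0. Its width rests mostly on the variance that limma draws from all probes, and little on the gap of this gene.

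Dll1, a Delta-like ligand, was near its control on both arrays. Its intensity was 820.3 in the control and 860.1 with cyclopamine on replicate 1, and 191 and 216 on replicate 2 (probe at chr17:15504623-15504682, mm9). The log2 ratios of 0.07 and 0.18 gave a mean of 0.12 ± 0.08 (SD, n = 2; adjusted p = 0.900, limma). A second Dll1 probe was not well above background in any of the 4 channels, and its ratio was not used.

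Dll4, the Delta-like ligand of vascular endothelium, was higher with cyclopamine in the female pool and near its control in the male pool. Its intensity was 2013 in the control and 2779.8 with cyclopamine on replicate 1, and 403 and 411 on replicate 2 (probe at chr2:119160779-119160838, mm9). The log2 ratio was 0.47 on replicate 1 and 0.03 on replicate 2, where the spots lay on both sides of 0. The mean was 0.25 ± 0.31 (SD, n = 2; adjusted p = 0.770, limma). With the length trend removed the value on replicate 1 was 0.60.

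Of the Hes/Hey genes, only Hes1 and Heyl differed widely between the arrays. Hes1, a repressor gene that responds to Notch and to other signals, was lower with cyclopamine in the female pool and not in the male pool. Its intensity was 3018 in the control and 1892 with cyclopamine on replicate 1, and 495 and 518 on replicate 2 (probe at chr16:30067820-30067879, mm9). The log2 ratios were -0.67 and 0.07, and every spot lay on the side of its array's mean. The value on replicate 1 was at percentile 6.23 of all tested probes on that array. The mean was -0.30 ± 0.52 (SD, n = 2), with a limma 95% interval from -0.77 to 0.16 (adjusted p = 0.718). Hes1 is the shortest of the 10 genes (2440 bases), and with the length trend removed its log2 ratio on replicate 1 was -0.37. The part of gene length in the difference between the arrays was not tested.

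Heyl, a Hey family gene typical of vascular smooth muscle, showed the reverse order. Its intensity was 6274 in the control and 7690.1 with cyclopamine on replicate 1, and 1623 and 983 on replicate 2 (probe at chr4:122926975-122927034, mm9). The log2 ratios were 0.29 and -0.72, the widest gap between the arrays among the 10 genes. The value on replicate 2 was at percentile 1.9 of that array. The mean was -0.21 ± 0.72 (SD, n = 2; adjusted p = 0.816, limma). Removal of the length trend left it at 0.34 and -0.73.

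Hey1 and Hey2, which encode repressors of the same family, stayed close to their controls. Hey1 was well above background in each channel, with an intensity of 13527.5 in the control and 13557 with cyclopamine on replicate 1 and of 2327 and 2303 on replicate 2 (probe at chr3:8663432-8663491, mm9). Its log2 ratios were 0.0031 and -0.0148, with a mean of -0.0059 ± 0.0127 (SD, n = 2) and a limma 95% interval from -0.46 to 0.45 (adjusted p = 0.996). The interval does not show that Hey1 was left alone by the treatment, since it includes changes from 0.7275-fold to 1.363-fold. Hey2 gave a low signal on replicate 2, with an intensity of 106.8 in the control and 126 with cyclopamine on replicate 1 and of 16.1 and 16.6 on replicate 2 (probe at chr10:30552729-30552788, mm9). The log2 ratios were 0.24 and 0.05, and on replicate 2 the spots ran from -0.11 to 0.16. The mean was 0.15 ± 0.14 (SD, n = 2; adjusted p = 0.879, limma).

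By the brightest probe, 4 of the 10 genes were above the control on both arrays (Jag1, Dll1, Dll4 and Hey2), 1 was below on both (Notch2) and 5 had opposite signs (Notch1, Notch3, Hes1, Heyl and Hey1, the last with both values near 0). Over all 19398 tested genes 42.4% had opposite signs, 5557 were above the control on both arrays and 5614 were below on both. A total of 4 genes (Notch1, Notch3, Hes1 and Heyl) had all their spots above 0 on 1 array and below 0 on the other, compared with 25.9% of all tested genes. The second probe of Notch1 was above the control on both arrays. The order of the means ran from Jag1 and Dll4 at the top to Notch2 and Hes1 at the bottom. All 10 limma intervals overlap, and differences between genes were not tested.

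**Figure D3:**
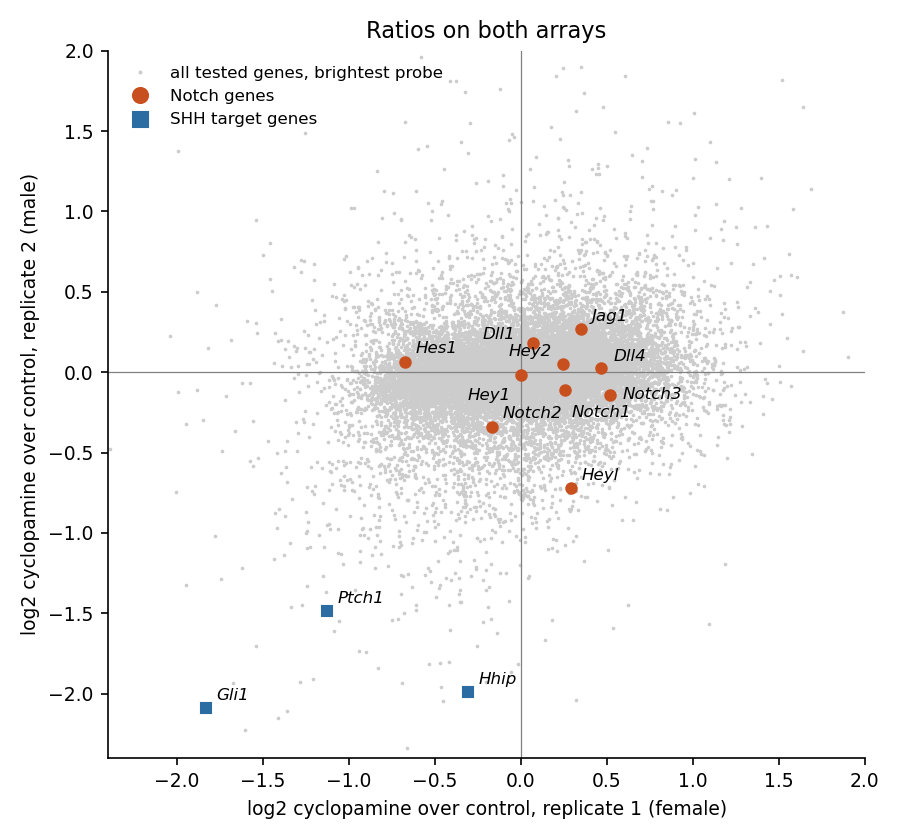
Log2 ratio of cyclopamine over control on replicate 1 (female pools, x axis) against replicate 2 (male pools, y axis). Grey points are all tested genes, each by its brightest probe, orange circles are the 10 Notch genes and blue squares the SHH target genes Gli1, Ptch1 and Hhip; a few genes beyond the axes are not shown. Except for Hes1 and Heyl the Notch genes lie within 1.5-fold on each array, while Gli1 lies at -1.83 and -2.09.

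The values on replicate 1 are to be read beside the relation to gene length. Of the 10 genes Hes1 and Hey1 are shorter than 5 kb, and Jag1, Notch1, Notch3 and Notch2 are longer than 20 kb. With the length trend removed the log2 ratios on replicate 1 were 0.26 for Hey1, 0.21 for Dll1, 0.37 for Hey2, 0.22 for Jag1 and 0.09 for Notch1. Notch2, the longest gene at 136830 bases, went from -0.17 to -0.46 on that array. No Notch gene was called by limma after this step. The mean over both arrays changed sign for Notch1, to -0.03, and for Hey1, to 0.14, and the other 8 genes had the same sign.

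**Figure D4:**
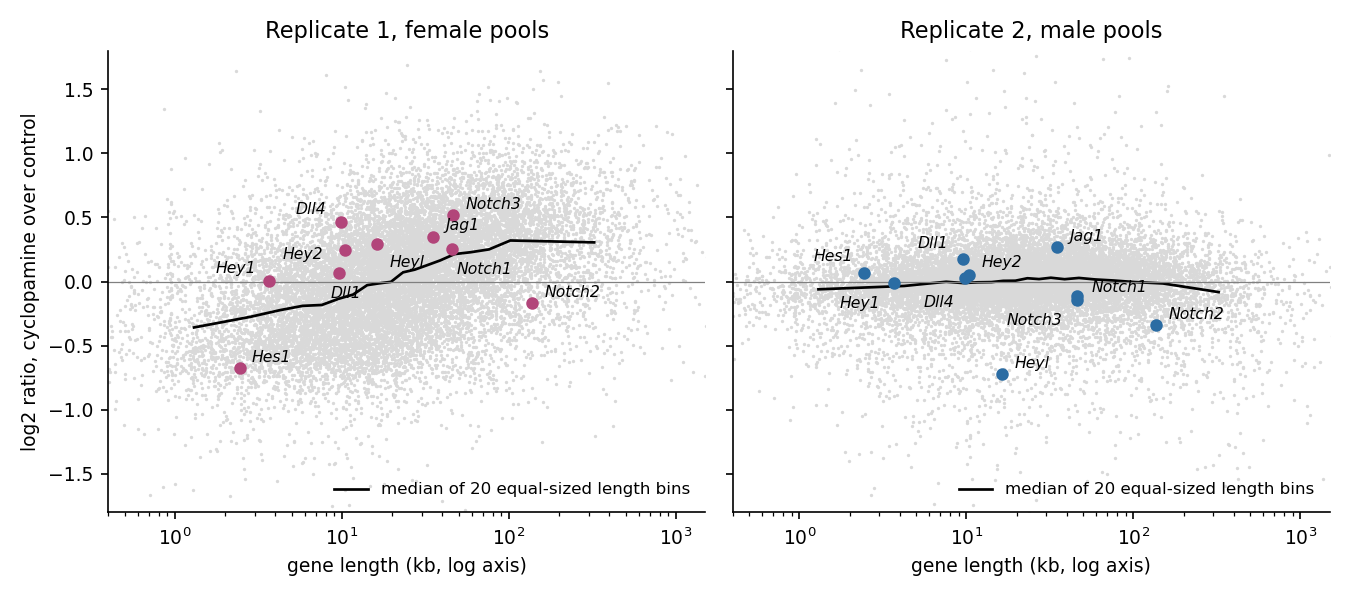
Log2 ratio of cyclopamine over control against genomic gene length (log axis) on replicate 1 (female pools) and replicate 2 (male pools). Grey points are all tested genes with a known length, coloured points the 10 Notch genes, and the black line joins medians of genes binned by length. The line climbs from below to above 0 on replicate 1, where Hes1 lies at -0.67 and Notch3 at 0.52, and stays near 0 on replicate 2.

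The other genes of the pathway were read by the same fit. Of 47 further genes in 8 roles, 46 were tested, and Hes3 was not well above background. By the brightest probe none was called by limma, 2 had an unadjusted p under 0.05, both lower (Dner and Dll3), and none passed the intensity and fold filter. Of all 19398 tested genes, 933 were lower and 822 higher at that unadjusted p. Of the 46 pathway genes 30 were above the control on replicate 1 and 19 on replicate 2, 12 were above and 9 below on both, and 25 had opposite signs. Of these 46 genes 29 were longer than 20 kb, and ratios on replicate 1 rose with gene length. The median log2 ratio of all tested genes was -0.0026 on replicate 1 and -2e-04 on replicate 2. Over all 19398 tested genes 5557 were above and 5614 below on both, and 8227 had opposite signs. The mean log2 ratios of the 46 genes had a median of 0.06. Of all 25975 tested probes, 1161 were lower and 1279 higher at an unadjusted p under 0.05. A further 21 probes of the pathway genes were tested, of which 2 had an unadjusted p under 0.05, both of Maml3, which encodes a Mastermind co-activator. One of them was called higher by limma, with log2 ratios of 0.49 and 1.296 and a mean of 0.89 ± 0.57 (SD, n = 2; adjusted p = 0.0320). It was dim, with intensities of 26.4 in the control and 37.1 with cyclopamine on replicate 1 and of 6.34 and 15.6 on replicate 2. The other gave 0.80 and 0.14 (adjusted p = 0.521, limma), whereas the brightest Maml3 probe gave 0.10 and -0.06 (adjusted p = 0.987, limma), so the 3 probes of Maml3 disagreed.

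Among the other ligands Dner, which encodes a Delta and Notch-like protein known from neurons, had the largest absolute mean ratio of the pathway by the brightest probe. Its intensity was 173 in the control and 135 with cyclopamine on replicate 1, and 53.0 and 20.7 on replicate 2, below the intensity limit of the filter. Its log2 ratios of -0.35 and -1.35 gave a mean of -0.85 ± 0.71 (SD, n = 2; adjusted p = 0.0529, limma). Dner was called under 5 of the other settings, at adjusted p of 0.00679 to 0.0375, and not under the rest. Dll3, a Delta-like ligand that acts inside the cell, had log2 ratios of -0.49 and -0.67 (adjusted p = 0.310, limma). Its intensities were 63.1 and 45.0 on replicate 1 and 9.83 and 6.19 on replicate 2, where its spots ran from -1.39 to 0.13. A second Dll3 probe, also dim, gave -0.42 and 0.09, so the probes disagreed on replicate 2. Jag2, the second Jagged ligand, had log2 ratios of 0.50 and 0.13.

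Notch4, the endothelial receptor, had log2 ratios of 0.53 and -0.18, side by side with 0.52 and -0.14 for Notch3. The genes for endocytosis of ligands had no common direction. Among them Neurl1a had a mean of -0.38 (-0.01 and -0.76, and -0.04 and -0.75 by a second probe). Mib1, a ubiquitin ligase needed in the ligand-presenting cell, had the largest absolute mean of these genes, at 0.39 (0.62 and 0.17 on the 2 arrays). Of the sugar transferases that modify the receptors it was Mfng, a Fringe enzyme, with -0.32 and -0.30, a gap as small as that of Hey1. For the proteases it was Ncstn, a subunit of gamma-secretase, with 0.73 and 0.07. In the nuclear complex it was Tle1, a co-repressor that works with HES proteins, with 0.76 and 0.13 by the brightest probe. On replicate 2 the spots of that probe ran from -0.06 to 0.66. The dimmer Tle1 probes gave 0.06 and 0.02, 0.39 and 0.02, and -0.13 and 0.07, so the probes of Tle1 disagreed. By the brightest probe all 9 genes of this group had mean log2 ratios between -0.07 and 0.44.

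Of the negative regulators Itch, a ubiquitin ligase, had the largest absolute mean, with 0.67 and 0.09, and Nrarp, itself a Notch target that limits the pathway, had -0.06 and 0.19. Of the further Hes genes it was Hes2, with 0.29 and 0.46 at intensities of 47.1 and 57.6 on replicate 1 and 6.80 and 9.38 on replicate 2. Hes5, whose window is shown above with its 2 RBPJ matches, had -0.81 and 0.14. On replicate 2 it was dim, with intensities of 18.7 and 20.5, and its spots lay on both sides of 0, from -0.05 to 0.39. Hes6 had -0.50 and -0.05 and Hes7 -0.01 and -0.15, below the control on both arrays. By gene length, 5 of the 7 tested pathway genes under 5 kb were below the control on replicate 1, compared with 24 of the 29 genes over 20 kb that were above it. The array as a whole had this relation. On replicate 1 the median over all tested genes of known length was -0.29 under 5 kb, 0.12 from 20 to 50 kb and 0.28 over 50 kb.

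**Figure D5:**
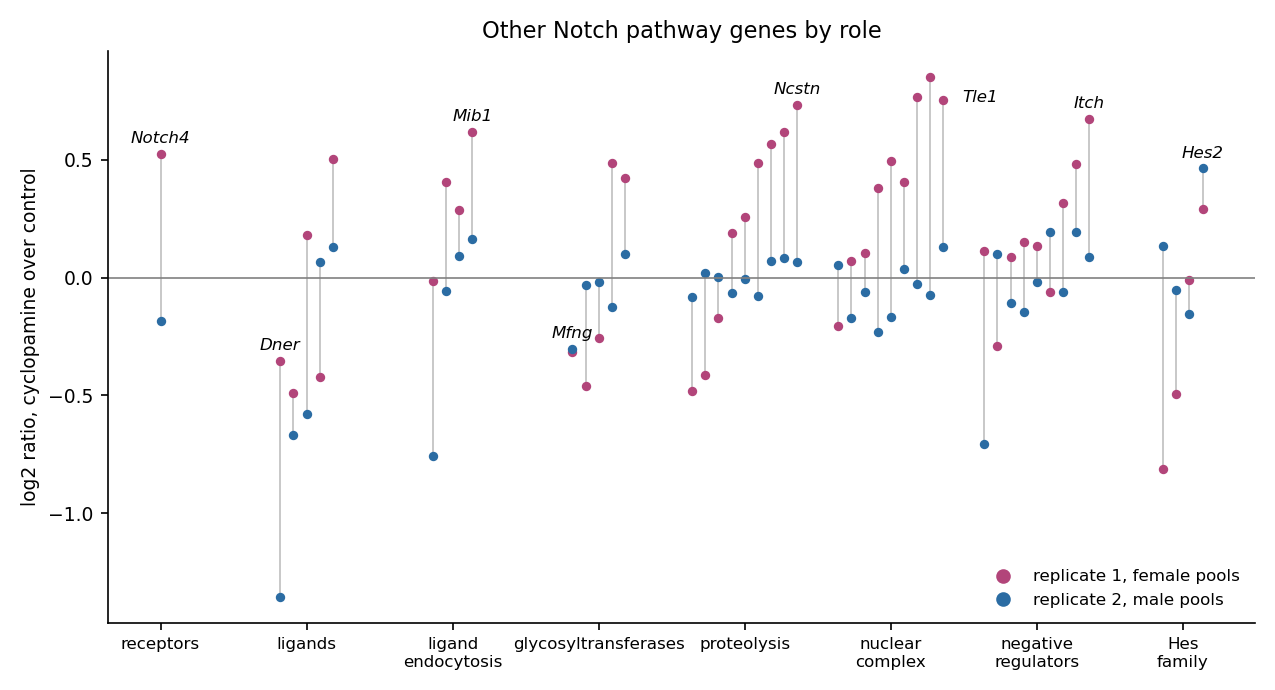
Log2 ratios of cyclopamine over control for the 46 tested pathway genes outside the set of 10, grouped by role, on replicate 1 (female pools) and replicate 2 (male pools). A grey line joins the values of a gene, and the gene with the largest absolute mean of each role is named. The values of replicate 1 spread more widely than those of replicate 2, and Dner reaches -1.35 on replicate 2.

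Markers of the cell types of the ureter were set beside these values, and those of all 6 lists were well above background in the 4 channels. For comparison, the median log2 ratio of all tested genes was -0.0026 on replicate 1 and -2e-04 on replicate 2. The summed intensity of the 10 endothelial markers was 96698 in the control and 112840 with cyclopamine on replicate 1 and 19866 and 17901 on replicate 2, and 5 of 10 were above the control on replicate 1 and 1 of 10 on replicate 2. Tek, an endothelial receptor gene with the largest absolute mean of that list, had log2 ratios of 0.66 and 0.05. The list was split on replicate 1, from -0.44 for Egfl7, a gene for a secreted endothelial protein, to 0.88 for Kdr, which encodes a VEGF receptor, and ran from -0.31 to 0.05 on replicate 2. A second, dimmer Kdr probe gave 0.43 and -0.21. Egfl7 spans 11600 bases and Kdr 46246, and the part of gene length in this split was not tested. Of the 6 mural markers 5 were above the control on replicate 1 and 3 on replicate 2, with summed intensities of 54170 and 84337 on replicate 1 and of 17447 and 17025 on replicate 2. Pdgfrb, a receptor gene of mural and other mesenchymal cells, had 1.16 and -0.01. Its intensity on replicate 1 was 19028 in the control and 42550 with cyclopamine, which was most of the rise in the sum. Of the other mural markers above the control there, Abcc9 was at 0.59, Cspg4 at 0.34, Rgs5 at 0.04 and Kcnj8 at 0.002. The median of the mural list was 0.19 on replicate 1 and 0.0034 on replicate 2.

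The 9 smooth muscle markers were all below the control on replicate 2, between -1.09 and -0.30, where Heyl was at -0.72, and 6 of 9 were below it on replicate 1. Their summed intensity was 360980 and 332840 on replicate 1 and 94485 and 58574 on replicate 2. Actg2, which encodes the enteric smooth muscle actin, was the only gene of that list called (-0.71 and -1.09, adjusted p = 0.0251, limma). All 7 lamina propria markers were below the control on both arrays and 4 were called. Car3, a carbonic anhydrase gene, had -0.70 and -1.26 (adjusted p = 0.0120, limma). The lamina propria list was drawn from work on these same samples and is no independent evidence of its direction. The summed intensity of these markers was 106750 and 64328 on replicate 1 and 17532 and 8866.2 on replicate 2. Of the 10 urothelial markers 8 were above the control on replicate 1 and 9 on replicate 2, with Trp63, a basal cell transcription factor, at 0.68 and 0.25. The dimmer Trp63 probes gave 0.02 and 0.24, 0.32 and 0.05, and -0.93 and -0.07, so the probes of Trp63 disagreed. Of the 5 leukocyte markers 4 were above on replicate 1 and 1 on replicate 2. Cd68, a macrophage gene with the largest absolute mean of the list, was the only one below on both arrays (-0.24 and -0.23), whereas Adgre1, another macrophage gene, was above on both (0.21 and 0.185). The part of these cell types in the ratios of the Notch genes was not tested.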

How the data were processed

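RNA of pooled P0 ureters was hybridised to 2 two-colour Agilent whole mouse genome arrays. The deposited files list the intensity of each spot in either channel. Agilent Feature Extraction is given as version 12.2.0.7 in the file headers and as 10.7.3.1 in the submitters' processing notes. According to its settings, per the file headers, background was subtracted from the intensity and dyes were balanced by a linear and a LOWESS step. The deposited log10 ratio of these intensities has red as the numerator and served as a check of direction. A further deposited table holds a score per probe, which is the fold change with its sign (cyclopamine over control, 1 decimal), used as an alternative.

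Spots with an outlier flag (2.89% and 3.15%) and control spots were left out, spots of a probe were averaged on the log2 scale (up to 4), and ratios were turned to cyclopamine over control. No spot was saturated. Of 39429 probes, 28328 were named through the RefSeq gene table of GRCm38.p6 by accession and the others by the array file. limma 3.58.1 (R 4.3.3; lmFit and eBayes, two-sided, Benjamini-Hochberg, limit 0.05) tested the 25975 probes for which at least 0.5 of the spots were well above background in the same treatment on both arrays. With 1 residual degree of freedom per probe the variance rests on the prior (51.9 degrees of freedom). The filter takes the intensity and fold limits stated by the study; that each array had to pass, and its use for higher genes, were set here, and it has no p-value. Pools are described as independent. The p-values set the mean of 2 arrays against a variance drawn mostly from the spread of all probes, and hardly from that of the gene itself. Alternatives changed the background correction, the filters, the summary over spots and probes, the prior, the gene length trend (loess-type fit on log10 length) and the arrays used. Motifs were searched with Python 3.11.15.

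The genes and lists were chosen with earlier results of these data known. Named were the 10 genes, the pathway genes called or past the filter (none by the brightest probe), the largest of each role and marker list, and Gli1, Ptch1 and Hhip as treatment check. Dll3, Jag2, Neurl1a, Maml3, Hes5, Hes6, Hes7, Nrarp, Kdr, Egfl7, Abcc9, Cspg4, Rgs5, Kcnj8 and Adgre1 were added after their values were seen.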

Additional observations from a re-analysis of the deposited data

Results flagged for a closer look

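In 4 genes the female and the male pools moved in opposite directions, with all spots of the brightest probe above 0 on 1 array and below 0 on the other. The log2 ratio of cyclopamine over control in the female pool minus that in the male pool was 0.37 for Notch1 (0.26 and -0.11), 0.66 for Notch3 (0.52 and -0.14), -0.74 for Hes1 (-0.67 and 0.07) and 1.02 for Heyl (0.29 and -0.72). With a single array per sex the difference was not tested, and sex, dye orientation and replicate cannot be told apart. A second probe of Notch1 was above the control on both arrays (0.14 and 0.11). Of all tested genes 25.9% met the same rule.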

How the results depend on the processing

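No Notch gene was called by limma under any of the 11 settings that gave a test, and on the rounded series values Notch2 and Jag1 had an unadjusted p of 0.0446 (adjusted p = 0.511, limma). The count of Notch genes past the 1.5-fold filter was 0 under each setting with both arrays and 1 on a single array, Heyl without replicate 1 and Hes1 without replicate 2. Without 1 replicate the ratio ran from -0.11 to 0.26 for Notch1, from -0.14 to 0.52 for Notch3, from -0.67 to 0.066 for Hes1, from -0.015 to 0.0031 for Hey1 and from -0.72 to 0.29 for Heyl. Other signs that turned were those of Notch1 with the gene length trend removed (-0.026), Notch2 as the mean of all probes (0.029) and Hey1 with normexp offset 50 (0.021), with offset 10 (0.011) and with the length trend removed (0.14). The median of the 10 genes ran from 0.01 to 0.25 and that of the other pathway genes from -0.03 to 0.18 without 1 replicate.

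Over all probes limma called 200 lower and 118 higher. With normexp and loess it called 42 and 12 (offset 50) or 123 and 52 (offset 10), 0 and 0 on the series values (818 and 1051 at an unadjusted p under 0.05) or with the 4 channels as separate samples (291 and 274), and 216 higher with no filter on dim probes. Of the other pathway genes 0 were called by the brightest probe, and 1, Dner, with an intensity trend in the prior, the mean of all probes, all spots kept, the median over spots or the length trend removed. The dim Maml3 probe called by limma (adjusted p = 0.0320) was called under 3 of 9 other settings, at adjusted p of 0.0194 to 0.992 over the 9. The filter passed 86 genes lower and 29 higher. It passed 20 and 3 at 2-fold, 55 lower at a control intensity over 200, 180 and 141 by the mean ratio, and on a single array 229 to 1743 lower and 80 to 1362 higher. The cause of these differences was not tested. The ratio within each array keeps its channels paired, and the fit of the 4 channels had no replicate block (0 called in each direction). The number of arrays and the 5.32 times lower intensity on replicate 2 limit what can be seen.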
